A study of Rattus norvegicus with 6 samples.

Results

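Cx3cl1, Ccl22, Ccl5, Ccl2 and Csf1 encode 4 chemokines and a growth factor of macrophages, and they were followed in rat C6 glioma cells with and without overexpression of AQP1. The members were set by symbol, and the deposited tables held all 5 of them among the 12121 genes listed. All 5 were higher in C6-AQP1 cells, but they fell into 2 classes. Cx3cl1, Ccl22 and Ccl5 had at most 4 reads in any C6 control library and at least 10 in each C6-AQP1 library. Ccl2 and Csf1 were abundant in C6 control cells already and rose by less than 2-fold.

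C6 is an established line from a chemically induced rat brain tumour, and AQP1 lets water cross cell membranes. RNA-seq was performed on 3 libraries of C6 cells that overexpress Aqp1 (C6-AQP1) and 3 libraries of C6 cells labelled control (C6 control). The methods describe an AQP1 sequence in a pCDH vector with a CMV promoter, and both kinds of cells come from the same purchased line. The name of this vector also lists CopGFP and puro. The labels name no vector for the control libraries, and no source used here says whether C6-AQP1 is a clone or a pool. In its viability and migration assays the study used control cells transfected with Pcdh, but it calls the RNA-seq samples C6 and C6-AQP1. If the controls lack the vector, its effects cannot be told apart from those of AQP1. Nothing says that the 3 libraries of a group are separate cultures, so the p-values rest on variation among these libraries that could be technical.

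Chemokines are small secreted proteins that draw white blood cells along a gradient by way of receptors coupled to G proteins, and the spacing of their first cysteines gives the CC, CXC and CX3C families their names. Cx3cl1, or fractalkine, is made as a membrane protein on a mucin stalk and can be shed, and in the brain it acts on Cx3cr1 of microglia. Ccl22 acts on T cells through Ccr4, Ccl5 on T cells and monocytes, and Ccl2 on monocytes through Ccr2. Csf1 is no chemokine but the ligand of Csf1r, on which macrophages and microglia depend for survival. Gliomas are known to release several of these factors and to hold many macrophages and microglia.

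Cx3cl1 and Ccl22 stand next to each other on rat chromosome 19, and the bases before their starts are shown because these neighbours had the highest fold changes of the members. Both sequences are from RefSeq (GRCr8, not the rn6 build of the deposited counts), on the minus strand, written 5′ to 3′, and end at the last base before the annotated start. They lie at chr19:10270360-10270609 for Ccl22 and at chr19:10242821-10243070 for Cx3cl1, 250 bases each. Capitals mark exact matches to the motifs searched.
Ccl22: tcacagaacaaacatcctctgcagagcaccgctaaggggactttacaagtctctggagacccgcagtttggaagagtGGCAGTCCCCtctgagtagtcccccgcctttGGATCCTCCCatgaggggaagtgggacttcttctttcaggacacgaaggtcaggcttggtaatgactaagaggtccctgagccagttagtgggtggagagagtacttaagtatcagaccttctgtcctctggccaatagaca
Cx3cl1: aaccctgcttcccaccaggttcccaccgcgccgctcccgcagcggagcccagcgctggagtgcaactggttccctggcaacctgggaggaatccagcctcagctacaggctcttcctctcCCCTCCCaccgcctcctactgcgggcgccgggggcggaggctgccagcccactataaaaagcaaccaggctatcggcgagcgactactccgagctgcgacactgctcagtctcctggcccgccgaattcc
The Ccl22 sequence held 52.4% G or C and the Cx3cl1 sequence 66.4%.

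The motifs were the NF-kB core (GGG and CC with any 5 bases between them), GGGAGGG for MAZ, GTAAACA for FOXO factors, TTTGGCG for E2F factors and TGANTCA for AP-1, on both strands. FOXO4, MAZ and E2F factors are those the study discusses, and NF-kB and AP-1 are known at chemokine genes. The Ccl22 window held 2 matches to the NF-kB core, both on the opposite strand, at positions -173 to -164 and -142 to -133 from the start. Of 33469 rat promoters in the table, 42.3% held such a match in the same 250 bases before the start, so it is a frequent one. The Cx3cl1 window held 1 match to the MAZ motif, on the opposite strand at -130 to -124, and 18.7% of all promoters held one in these 250 bases. The FOXO, E2F and AP-1 letters were in neither window, and they were in 3.21%, 1.19% and 6.34% of all promoters over the same 250 bases. Ccl5, Ccl2 and Csf1 have no entry in the promoter table used here.

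The depth of the libraries ranged from 19054244 to 52725870 expected counts, with replicate 1 the shallowest of both groups. Aqp1 itself had 1052, 1064 and 1057 CPM in C6-AQP1 replicates 1, 2 and 3 and 347, 352 and 349 CPM in C6 control replicates 1, 2 and 3, in accord with the labels. Here CPM are read counts scaled to the library size with TMM factors, a scale that corrects for depth and composition but not for gene length, so levels of different genes are not ranked against each other. A differentially expressed gene (DEG) had an adjusted p under 0.05 from edgeR and a fold change above 2. Of all listed genes 81.5% passed the p threshold alone, 40.8% by a rise and 40.7% by a fall, while 14.1% were DEGs, with 9.74% of all genes higher with AQP1 and 4.35% lower. P-values are from the quasi-likelihood test of edgeR, adjusted over all genes. SE stands for an approximate standard error on the log2 scale. It is the size of the log2 fold change over the square root of the F statistic of that test. For Cx3cl1, Ccl22 and Ccl5 this SE understates the uncertainty, and the exact counting intervals given with them are wider. Beside the shares of all listed genes, all 5 members rose and 3 were higher DEGs. The groups did not overlap for any of the 5, as for 82.5% of all genes. Since the members were chosen with earlier results of these data known, nothing is read from these counts.

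Cx3cl1 (ENSRNOG00000016326), the membrane-bound CX3C chemokine, had 62, 129 and 119 expected counts in C6-AQP1 replicates 1, 2 and 3. It had 3, 1 and 4 counts in C6 control replicates 1, 2 and 3. Scaled to depth this was 3.18, 3.12 and 2.81 CPM in C6-AQP1 cells and 0.135, 0.0193 and 0.0782 CPM in C6 control cells. The C6-AQP1 libraries lay close together and far above the highest control library. The log2 fold change was 5.48 (SE 0.33, edgeR adjusted p = 9.8e-13), the 16th highest of the 12121 genes. With 310 counts against 8 in all, the ratio of normalized counts was 47.0, with a 95% exact interval of 23.6 to 109.9 that covers counting error only.

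Ccl22 (ENSRNOG00000016535), a CC chemokine best known from dendritic cells and macrophages, had 34, 45 and 42 expected counts in C6-AQP1 replicates 1, 2 and 3. In the controls it had 0, 0 and 1 counts, and a count of 0 still allows up to 0.135 CPM in replicate 1 and 0.0580 CPM in replicate 2. In C6-AQP1 cells the levels were 1.74, 1.09 and 0.993 CPM. Replicate 1, the shallowest C6-AQP1 library, was thus the highest, and the other two lay close together. The coefficient of variation between these libraries was 31.9%, where counting alone gives about 15.8%, and the chi-square per degree of freedom against a constant level was 3.39. Even the lowest of these libraries lay well above those limits. The log2 fold change was 6.75 (SE 0.61, edgeR adjusted p = 1.2e-09), and the ratio of normalized counts, 121 against 1, had an exact interval of 25.9 to 5848. The size of this difference is set by 1 control read: without C6 control replicate 3, which held it, the fitted value was 8.43, and without C6 control replicate 2 it was 6.15.

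Ccl5 (ENSRNOG00000010906), or Rantes, had 10, 23 and 21 expected counts in C6-AQP1 replicates 1, 2 and 3 and 1, 2 and 1 counts in the controls. These were 0.512, 0.557 and 0.496 CPM in C6-AQP1 cells against 0.0449, 0.0387 and 0.0196 CPM in C6 control cells. The lowest C6-AQP1 library was more than 10 times the highest control library. The log2 fold change was 3.90 (SE 0.56, edgeR adjusted p = 1.6e-06). The ratio of normalized counts, 54 against 4, was 16.4 with an exact interval of 6.04 to 62.3. The intervals of Cx3cl1, Ccl22 and Ccl5 overlap.

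**Figure D1:**
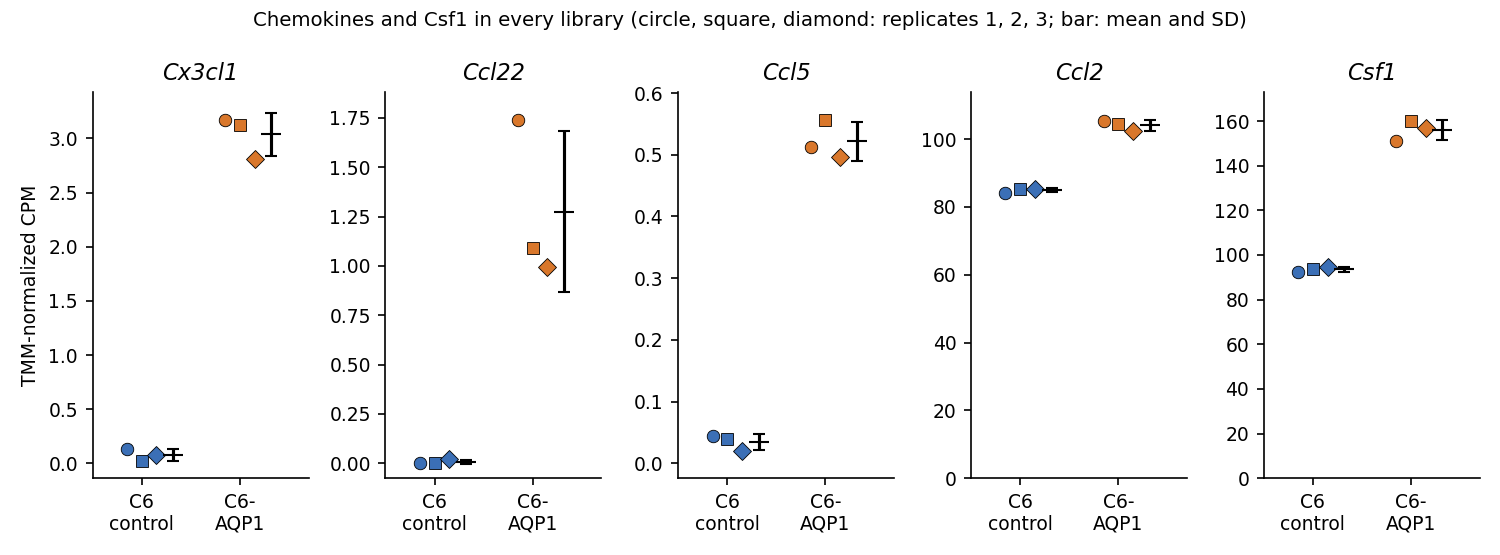
TMM-normalized CPM of Cx3cl1, Ccl22, Ccl5, Ccl2 and Csf1 in each library, with C6 control in blue and C6-AQP1 in orange. Each point is a library, the bars give the mean and SD of 3 libraries, and each panel has its own linear axis; Cx3cl1, Ccl22 and Ccl5 lie near 0 in the controls, while Ccl2 rises from about 84.9 to 104 CPM.

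Genes this low need a background of their own, because the tables hold only genes with a mean TPM above 1 in a group. Of the listed genes, 223 had a mean under 0.1 CPM in C6 control cells, Cx3cl1, Ccl22 and Ccl5 among them. Of these 56 rose, all of them by more than 2-fold, 4 fell and 163 missed the threshold. The share of higher DEGs was thus 25.1% at this control level, beside the 9.74% of all genes. In turn, 202 genes had a mean under 0.1 CPM in C6-AQP1 cells, of which 4 rose and 23 fell. Of 155 genes under this limit in both groups, 4 rose and 4 fell. A gene low in 1 group can be listed through the other, so the filter favours rises in the first set and falls in the second. The 25.1% is thus no neutral background, and nothing is read from it. The length of a gene is the same in both groups, so the 3 chemokines passed the TPM threshold in C6-AQP1 cells, where they are higher. Transcript lengths were not used here, so it was not computed whether their C6 control levels alone would have passed. The rises, ranks and p-values of these 3 genes are therefore conditional on a filter that their C6-AQP1 levels met.

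Csf1 (ENSRNOG00000018659) had 2953, 6614 and 6633 expected counts in C6-AQP1 replicates 1, 2 and 3 and 2060, 4849 and 4828 in C6 control replicates 1, 2 and 3. The levels were 151, 160 and 157 CPM in C6-AQP1 cells and 92.4, 93.8 and 94.4 CPM in C6 control cells. All control libraries lay within a narrow range, and the gap to the lowest C6-AQP1 library was far wider than either range. The C6-AQP1 libraries had a coefficient of variation of 2.90%, where counting alone gives about 1.36%. Their chi-square per degree of freedom against a constant level was 3.41. The log2 fold change was 0.74 (SE 0.03, edgeR adjusted p = 2.0e-16), a 1.67-fold rise that stays below the fold threshold of a DEG. It was higher than that of 84.1% of all listed genes.

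Ccl2 (ENSRNOG00000007159), the monocyte chemoattractant MCP-1, had 2059, 4311 and 4330 expected counts in C6-AQP1 cells and 1877, 4413 and 4358 in C6 control cells. The levels were 105, 104 and 102 CPM against 84.2, 85.3 and 85.2 CPM. The groups were separate, and the libraries of each group had coefficients of variation of 1.51% with AQP1 and 0.716% without, no more than counting noise gives. The log2 fold change was 0.29 (SE 0.03, edgeR adjusted p = 2.7e-09), a 1.22-fold rise. This value lies at percentile 66.7 of all listed genes, so many genes rose by more.

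Other chemokines of the C6 cells went both ways. Of 32 further chemokine ligands looked for, 6 were among the listed genes, of which 4 rose and 2 fell. Over all listed genes 40.8% rose and 40.7% fell. The median log2 fold change of these 6 ligands was 0.64, against 0.00 over all listed genes. Cxcl1, a neutrophil chemokine, was at 92.7, 92.4 and 94.0 CPM in C6-AQP1 cells and at 32.4, 32.8 and 31.7 CPM in C6 control cells. Its log2 fold change was 1.53 (SE 0.03, edgeR adjusted p = 2.1e-20), and that of the related Cxcl3 was 2.07 on 91 counts against 26 in all.

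Ccl7, the monocyte chemokine that neighbours Ccl2, was at 17.2, 16.4 and 17.0 CPM in C6-AQP1 cells and 9.11, 7.33 and 7.33 CPM in C6 control cells. Its log2 fold change of 1.12 (SE 0.08) made it a DEG, which Ccl2 was not. Cxcl16, a second chemokine with a membrane anchor beside Cx3cl1, had a log2 fold change of 0.16 whose adjusted p of 0.027 from edgeR was lost with DESeq2 (adjusted p = 0.091; range over all alternatives 0.00423 to 0.0915). Cxcl10, an interferon-induced T cell chemokine, fell from 101, 101 and 102 CPM to 80.5, 77.4 and 78.5 CPM, a log2 fold change of -0.37. Cxcl14 fell too, from 2.51, 3.40 and 3.68 CPM to 1.64, 1.89 and 1.23 CPM, a log2 fold change of -1.05. Ccl5 and Cxcl10, which both attract T cells, therefore differed in direction.

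**Figure D2:**
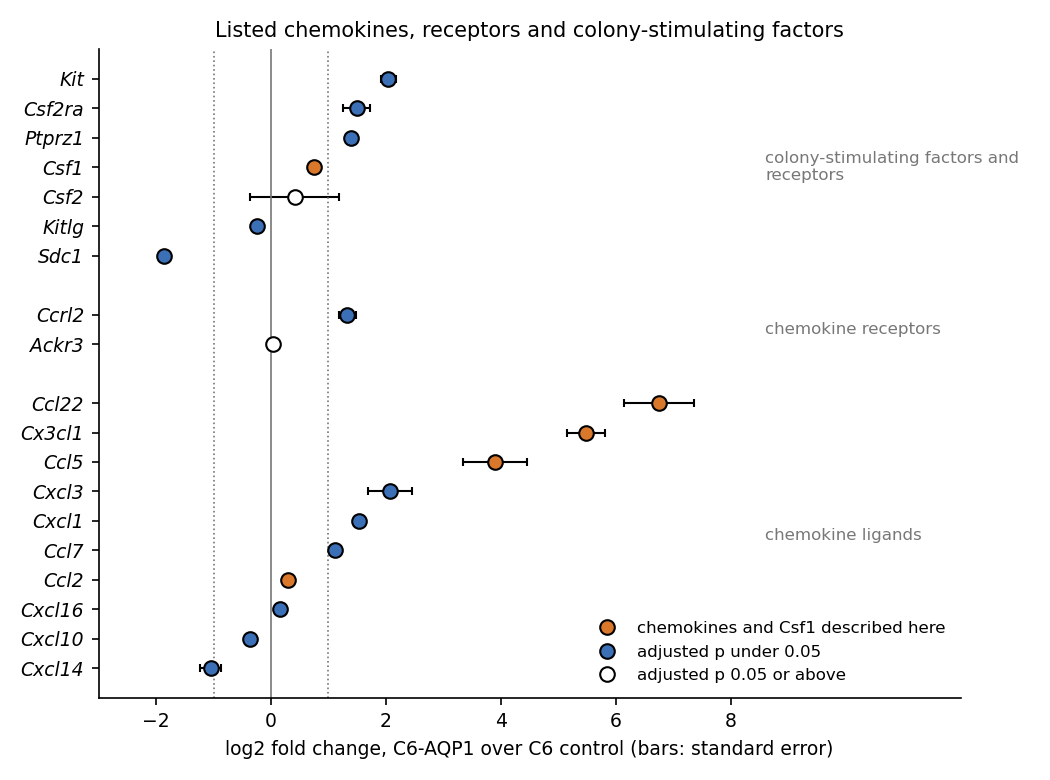
Log2 fold changes (C6-AQP1 over C6 control, bars give the approximate SE) of the listed chemokine ligands, chemokine receptors, and colony-stimulating factors and receptors. Orange points are Cx3cl1, Ccl22, Ccl5, Ccl2 and Csf1, blue points passed an adjusted p of 0.05 and white points did not; dotted lines mark a 2-fold change. Ccl22, Cx3cl1 and Ccl5 lie at 6.75, 5.48 and 3.90, and Cxcl3 follows at 2.07.

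The receptors of these ligands were mostly outside the listed genes. Of 24 chemokine receptors looked for, Ccrl2 and Ackr3 were listed, while Cx3cr1, Ccr4 and Ccr2 were not analysed here because they are not among the genes above the TPM threshold. Ccrl2, an atypical receptor that does not signal like the others, rose with a log2 fold change of 1.33 (SE 0.15, edgeR adjusted p = 4.1e-08). Ackr3, a scavenger of Cxcl12, had means of 25.0 CPM with AQP1 and 24.4 CPM without (adjusted p = 0.59 from edgeR).

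Around Csf1, 6 of 13 other colony-stimulating factors and receptors were listed, and 3 rose, 2 fell and 1 missed the threshold. Over all listed genes 40.8% rose and 40.7% fell. Csf1r and Il34, the other ligand of that receptor, were not among the listed genes. Ptprz1, a phosphatase of glial cells that also binds Il34, was at 637 ± 5.56 CPM in the controls and at 1678 ± 14.0 CPM with AQP1 (SD, n = 3), so that its log2 fold change was 1.40. Sdc1, a heparan sulfate proteoglycan that can bind such ligands, fell, with 325 ± 5.22 CPM in the controls against 89.9 ± 0.354 CPM (SD, n = 3) and a log2 fold change of -1.85. Kit, the receptor of stem cell factor, had a log2 fold change of 2.04, and its ligand Kitlg one of -0.24. Csf2ra, a chain of the GM-CSF receptor, had a log2 fold change of 1.49, and Csf2 itself had between 1 and 6 counts per library.

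Of 6 listed genes that free or trim these ligands or regulate the enzymes that do, 5 rose and 1 fell, with a median log2 fold change of 0.34. Over all listed genes 40.8% rose and 40.7% fell. Not all of the 6 are proteases: Rhbdf1 is a partner of Adam17 without protease activity and Timp3 an inhibitor of Adam17, and both rose. Adam17 and Adam10, which shed Cx3cl1 from the membrane and were named after their values were seen, went opposite ways, with log2 fold changes of 0.27 and -0.24 (edgeR adjusted p of 6.7e-11 and 2.0e-08). Mmp2, a gelatinase that cleaves several chemokines, and Ctss, the lysosomal protease cathepsin S, were higher DEGs with log2 fold changes of 2.47 and 1.87. Rhbdf1, which guides Adam17 to the surface, had a log2 fold change of 0.37, and Timp3, named after its value was seen, one of 0.31.

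Of the genes of NF-kB, a transcription factor that turns on many chemokines, no listed one was a DEG, though Tnfaip3 passed 2-fold when scaled by library totals or by upper quartile factors, without C6-AQP1 replicate 2, without C6 control replicate 1 and without both libraries of replicate 1. All 21 listed subunits, inhibitors and kinases were measured, and 9 rose, 6 fell and 6 missed the threshold, with a median log2 fold change of 0.08. Of the inhibitors, Tnfaip3 and Nfkbia had log2 fold changes of 0.97 and 0.75, and the coactivator Bcl3 one of 0.84. Nfkbib and Tnip1, which restrain NF-kB, and Nfkbiz, an atypical member of the IkB family, fell, with log2 fold changes of -0.35, -0.34 and -0.23. The subunits Relb and Nfkb2 and the kinase Chuk fell too, with -0.36, -0.23 and -0.15. These 6 genes were named after their values were seen. Of 10 listed genes that NF-kB can induce, 6 rose, 2 fell and 2 missed the threshold, with a median log2 fold change of 0.59. Of all listed genes 40.8% rose and 40.7% fell. C3, the central complement component, was at 2.87, 4.26 and 2.67 CPM in C6-AQP1 cells and at 0.135, 0.155 and 0.196 CPM in C6 control cells, a log2 fold change of 4.28. Lcn2, lipocalin 2, had a log2 fold change of 3.96 and the gelatinase Mmp9 one of 2.73. The 2 that fell were Lif and Tnfaip2, with -0.65 and -0.16, named after their values were seen. Il6 missed the threshold, with 1.25 and 1.24 CPM in C6-AQP1 and C6 control cells (adjusted p = 0.86 from edgeR). It was named after its values were seen.

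Of 15 listed receptors of inflammatory signals, 12 rose, 1 fell and 2 missed the threshold, with a median log2 fold change of 0.32, where 40.8% of all listed genes rose and 40.7% fell. The highest was Il6r, the receptor of interleukin 6, at 1.04. Tlr3, a sensor of double-stranded RNA, and Osmr, the oncostatin M receptor, had 0.96 and 0.91.

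Cx3cl1 and Ccl22 were neighbours, and the other listed genes around them changed by less than 2-fold in the edgeR fit with TMM factors. On the side of Cx3cl1, the nearest listed genes were Ciapin1, an iron-sulfur protein of cytosolic assembly, and Coq9, of ubiquinone synthesis, with log2 fold changes of -0.40 and -0.05 (the latter with an adjusted p of 0.33 from edgeR). On the side of Ccl22 lay Pllp, a membrane protein of myelin, and Arl2bp, with 0.96 and -0.17. Scaled by library totals, Pllp had 1.02 and so passed 2-fold. Apart from Cx3cl1 itself, the 9 other listed neighbours of Ccl22 ranged from -0.63 to 0.96, and Ccl17, the remaining chemokine of this cluster, is not among the listed genes.

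The neighbours of the other members are given beside the 14.1% of all listed genes that were DEGs. Of the 10 listed genes nearest to Ccl2, Ccl7 was a higher DEG and Tmem132e a lower one, with a log2 fold change of -5.84, and on the other side Asic2 and Tmem98 had 0.20 and -0.02. For Ccl5 the 10 nearest ranged from -0.52 to 0.64 with no DEG. For Csf1 they ranged from -1.79 to 1.24, with 1 higher and 1 lower DEG. The order of genes is that of RefSeq on GRCr8, where 10875 of 11928 unambiguous symbols of the tables were found.

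**Figure D3:**
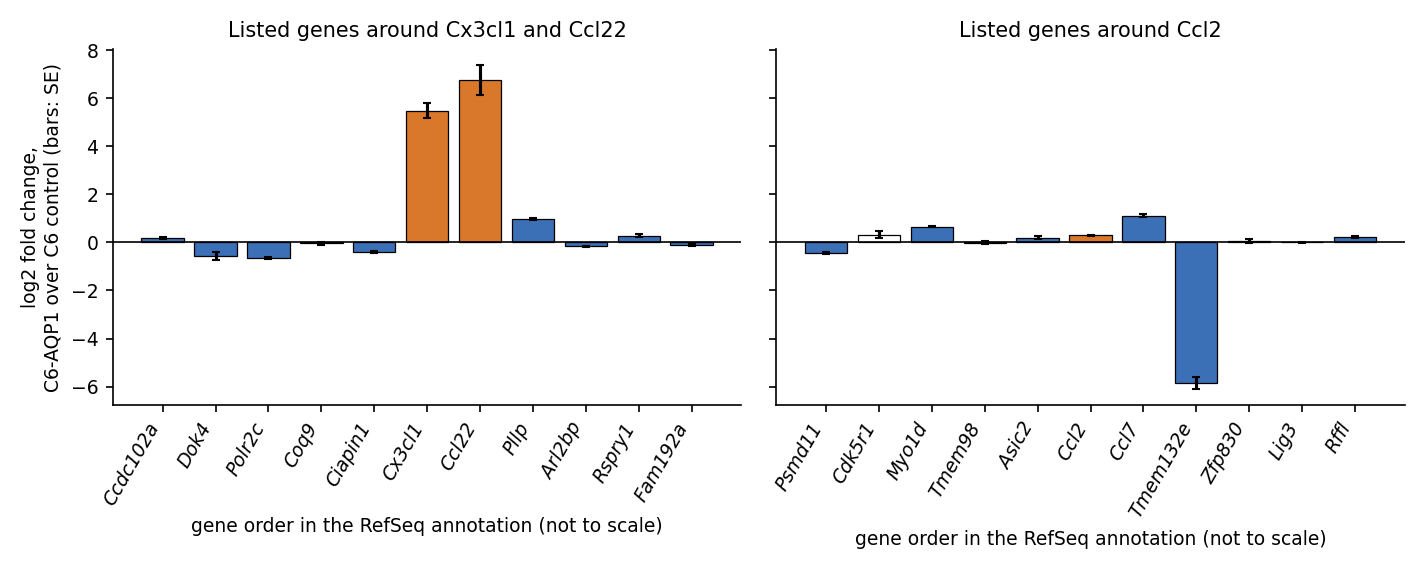
Log2 fold changes (C6-AQP1 over C6 control, bars give the approximate SE) of the listed genes around Cx3cl1 and Ccl22 and around Ccl2. Genes are in the order of the RefSeq annotation and not to scale. Orange bars are members, blue bars passed an adjusted p of 0.05 and white bars did not; Cx3cl1 and Ccl22 reach 5.48 and 6.75 while the genes beside them lie between -0.63 and 0.96.

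The genes whose levels over the 6 libraries were most like those of each member were found by the distance between log2 CPM profiles (prior count of 2), each centred on its own mean, among 10189 genes that reached 50 counts or more in all libraries of the group where they were higher. Nearest to Cx3cl1 were Kcnj10, the potassium channel Kir4.1 of astrocytes, Abca6, a transporter, and Atp1b2, the glial subunit of the sodium pump, at distances of 0.724, 0.837 and 0.894. Ccl22 was nearest to Mylk, the kinase of myosin light chain, at 0.622, and then to Rapgef5 and Ablim3. Ccl5 was nearest to the cadherin Cdh6 at 0.189, followed by Agap2 and Stk32a. For Ccl2 the nearest were Atg3, an autophagy enzyme, Cab39l and the kinase Jak1, and for Csf1 Man2a2, Nkd2 and Ankrd11, all at 0.0302 or less. The prior count shrinks the differences of low genes on this scale, so a near gene need not have the same fold change: the fitted log2 fold changes of Mylk and Cdh6 were 4.64 and 2.77, below the 6.75 of Ccl22 and the 3.90 of Ccl5.

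White blood cells and microglia make several of these ligands, so their markers are given beside them. Of 12 macrophage and microglia markers only P2ry12 was listed, with a summed level of 6.56 to 7.09 CPM in C6-AQP1 cells and 2.84 to 3.07 CPM in C6 control cells; the defining Ptprc, Aif1, Itgam and Cd68 were not among the listed genes. Of 7 T cell markers Lck was listed, at 1.18 to 1.43 and 1.31 to 1.57 CPM. Of 5 dendritic cell markers, Cd74 and Zbtb46 were listed and summed to 12.1 to 13.6 and 5.40 to 6.57 CPM. Cd74, the invariant chain of MHC class II, had 20, 37 and 34 counts in C6-AQP1 cells and 0, 2 and 1 in C6 control cells. The part of these markers in the results was not tested. Of 6 endothelial markers Tek was listed, at 7.94 to 8.55 and 2.19 to 3.14 CPM. The glial markers Vim, Nes, S100b, Cspg4 and Gfap were all listed, and with the overexpressed Aqp1 they summed to 7487 to 7751 and 5018 to 5153 CPM, mostly from Vim and Nes. Gfap, the filament of astrocytes, had 167 ± 6.72 CPM with overexpressed AQP1 against 14.0 ± 0.0652 CPM without it (SD, n = 3; log2 fold change 3.57), and its part in the results was not tested. In bulk RNA, more cells that make a transcript and more transcript per cell cannot be told apart.

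The direction of all 5 members held under each of 18 alternatives, while the size for the low genes did not. Ccl2 kept a log2 fold change between 0.27 and 0.34 and Csf1 between 0.72 and 0.79. Cx3cl1 ranged from 4.23 to 5.88, Ccl5 from 2.14 to 4.10 and Ccl22 from 3.60 to 8.43. The lowest of these came from DESeq2 with a prior that pulls fold changes of low genes toward 0.

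**Figure D4:**
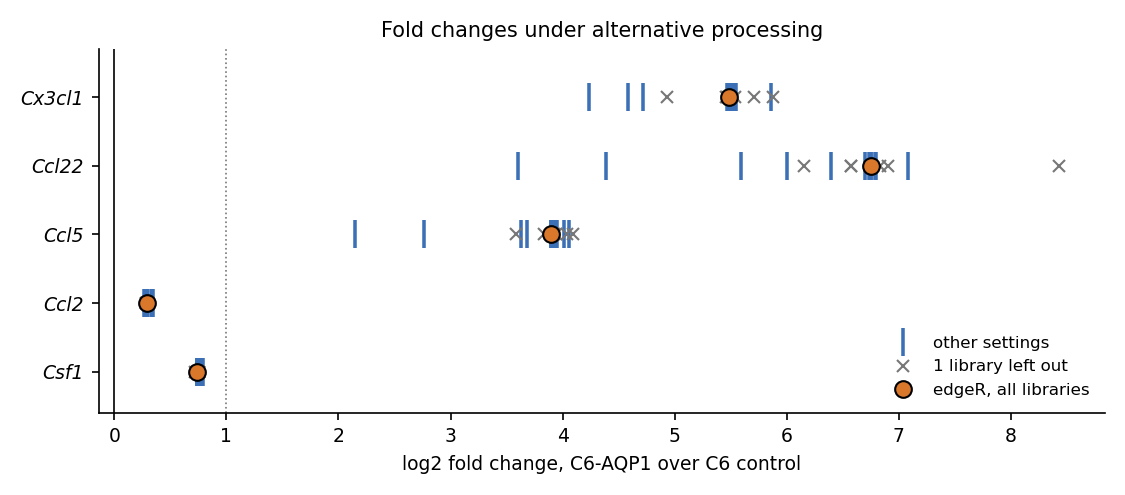
Log2 fold changes of each member (C6-AQP1 over C6 control) in the edgeR fit of all libraries (orange), with 1 library left out (crosses) and under the other settings (blue ticks); the dotted line marks a 2-fold change. Ccl2 and Csf1 stay below it and hardly move, while Cx3cl1, Ccl22 and Ccl5 stay above it and spread, Ccl22 from 3.60 to 8.43.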

How the data were processed

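The methods and the processing notes in the labels name FastQC (0.11.2) for read quality, Trimmomatic (0.36) for trimming, STAR (2.5.1b) for alignment to rn6 and RSEM (1.2.29) for quantification. The labels describe single reads and the methods paired-end reads. The authors deposited expected counts, which are estimated and not normalized, for genes with a mean TPM above 1 in a group. Which gene annotation they used is not stated in these sources. The expected counts were rounded, scaled by TMM and compared with edgeR 4.0.16 (R 4.3.3; quasi-likelihood test, robust, no covariates), with Benjamini-Hochberg adjustment over 12121 genes. Every expected count of the members was whole, against 11.1% of all values that were not. DESeq2 1.42.0 and limma 3.58.1 served as alternatives, and these steps were tested on simulated data. The common coefficient of biological variation was 2.97%. Replicates differed by more than sampling noise (chi-square per degree of freedom 2.15 to 4.29), so each library was counted separately. Intervals and the floor of 3 counts cover counting error only.

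The members and gene lists were chosen with earlier results of these data known. Named genes are the members, every listed chemokine, chemokine receptor and colony-stimulating factor or receptor, up to 3 called genes of each other list with the largest change, the 2 nearest listed neighbours on each side, and the 3 genes most like each member. Symbols that stand for more than 1 gene (92) were left out of lists. The other assays of the study were not analysed here.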

Additional observations from a re-analysis of the deposited data

How the results depend on the processing

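The calls of the 5 members held under all 18 alternatives, which were other scalings, DESeq2 with and without a prior, limma-voom, 2 filters on low counts, a prior count of 2, thinning to the smallest total, a replicate block, and leaving out libraries. Sizes moved by more than 1.5 times for Ccl22 under 6 alternatives, for Cx3cl1 under 3 and for Ccl5 under 2. With a prior count of 2 their log2 fold changes were 4.39, 4.71 and 2.77, and thinned to the smallest total those of Ccl22 and Cx3cl1 were 5.59 and 4.58. With 1 library left out, Ccl22 lay between 6.15 and 8.43, Cx3cl1 between 4.93 and 5.88, Ccl5 between 3.59 and 4.10, Ccl2 between 0.28 and 0.30 and Csf1 between 0.72 and 0.76. The number of higher DEGs ranged from 1105 to 1294 against 1180, and that of lower DEGs from 446 to 583 against 527. Cxcl16 lost its call with both DESeq2 settings and without C6-AQP1 replicates 2 or 3 or C6 control replicate 3, and Asic2 without both libraries of replicate 1. Without C6-AQP1 replicate 3, 2 receptors of inflammatory signals fell in place of 1. Whether the replicate numbers pair the libraries was not settled: deviations of same-numbered libraries correlated at 0.252, -0.0392 and 0.0748 for numbers 1, 2 and 3. With 3 libraries per group such correlations cannot exclude a pairing. With the replicate block Ccl22, Cx3cl1, Ccl5, Ccl2 and Csf1 had log2 fold changes of 6.70, 5.47, 3.90, 0.29 and 0.74, and 1182 higher and 522 lower DEGs were called. Replicate 1 of each group correlated best with its own number and replicates 2 and 3 did not. Depth limits Ccl22, Ccl5 and Cx3cl1, which rest on 1, 4 and 8 control counts.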
